A study of Mus musculus with 46 samples.

Results

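A set of 10 genes of the NF-kB response were followed, chosen by name: the cytokines Tnf, Il1a and Il1b, the chemokines Ccl2, Ccl3, Ccl4 and Cxcl10, and the feedback inhibitors Nfkbia, Nfkbiz and Tnfaip3. They are 10 of the 20999 genes in the count table, and all 10 passed the filter on low counts that left 12230 genes for testing. RNA was measured in sorted microglia, the resident macrophages of the brain, of male C57BL/6 mice. The adult group was wild type, untreated and 90 days old, and its labels call the cells Ki67-Negative although its titles name no Ki67 sort. The other RNA groups came from untreated Ki67-rfp reporter mice at 8 days of age (PND8) and from 75-day-old Ki67-rfp mice fed PLX5622 for 17 days and allowed 3 days of recovery (repopulation). Each of these contexts was split into Ki67-negative and Ki67-positive cells, Ki67 being a protein of cycling cells. PLX5622 inhibits CSF1R, the receptor microglia depend on for survival, and the diet depletes them until it is withdrawn. Each of the 5 RNA groups held 2 libraries, which the submitters describe as independent biological replicates. The labels do not say whether animals were pooled. H3K27ac, the acetylated histone found at promoters and enhancers in use, was mapped in 2 libraries each of wild-type adult (60 and 65 days), PND8 Ki67-negative and Ki67-positive, cuprizone Ki67-negative and Ki67-positive (90 days) and repopulation Ki67-positive (90 days) microglia. Cuprizone is a copper chelator that strips myelin from axons, and it was given in the diet for 4 weeks. The titles of the H3K27ac libraries name C57 mice and not the reporter, also for cells sorted on Ki67, unlike those of the RNA. There was no RNA from cuprizone mice and no H3K27ac from Ki67-negative repopulation cells in the tables used here. Open chromatin (ATAC) came from 1 library each of adult (80 days), PND8 Ki67-positive and repopulation Ki67-positive (75 days) cells. Its titles name the reporter while its genotype field says wild type. Adult H3K4me3, a mark of promoters (2 libraries, 75 days), and Rpb2, the second largest subunit of RNA polymerase II (2 adult libraries, 60 and 65 days, and 1 PND8 Ki67-positive library), completed the set. The titles of both marks name C57 mice and not the reporter. Per the labels, tissue was dissociated mechanically on ice with flavopiridol, an inhibitor of transcription elongation, and cells were sorted on CD11b, CD45 and CD44.

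NF-kB is a family of transcription factors held in the cytoplasm by IkB proteins until receptors for microbial products, TNF or IL-1 set off the kinase that marks IkB for destruction. In the nucleus NF-kB then turns on cytokines and chemokines together with its own inhibitors, among them the IkB protein encoded by Nfkbia and the ubiquitin-editing enzyme encoded by Tnfaip3, so that the response ends itself. In microglia these genes are known for fast induction after injury, infection or handling of the tissue.

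RefSeq promoters (GRCm38.p6, 250 bases before to 50 after the start) were listed for 7 of the 10 genes, and not for Nfkbiz, Ccl2 or Ccl4. Both strands were searched for the NF-kB consensus, for the AP-1 element TGANTCA and for the core of the interferon-stimulated response element, and the given strand for the TATA box, TATAAA. Among all 32851 RefSeq promoters of that length, 4.51% held the NF-kB consensus, 7.81% the AP-1 element, 3.44% the interferon element core and 8.32% the TATA box. The NF-kB consensus was found in 3 of the 7 genes: Nfkbia, Tnfaip3 and Cxcl10. These 3 are printed because they hold it, and Ccl3 because its RNA moved most and its window holds none of the 4 motifs. Each sequence is the 250 bases before the start, 5' to 3' on the minus strand, on which all 4 genes lie, with the consensus in capitals, at chr12:55492648-55492897 (Nfkbia), chr10:19015411-19015660 (Tnfaip3), chr5:92348890-92349139 (Cxcl10) and chr11:83649379-83649628 (Ccl3).
Nfkbia: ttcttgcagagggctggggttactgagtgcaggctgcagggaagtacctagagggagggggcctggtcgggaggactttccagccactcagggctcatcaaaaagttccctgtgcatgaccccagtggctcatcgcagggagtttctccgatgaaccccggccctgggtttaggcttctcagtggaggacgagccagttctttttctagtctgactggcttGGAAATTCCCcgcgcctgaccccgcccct
Tnfaip3: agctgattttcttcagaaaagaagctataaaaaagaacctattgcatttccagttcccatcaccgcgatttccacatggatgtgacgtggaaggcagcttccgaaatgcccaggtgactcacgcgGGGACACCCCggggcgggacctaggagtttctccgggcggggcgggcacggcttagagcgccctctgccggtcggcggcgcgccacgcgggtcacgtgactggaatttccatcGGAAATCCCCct
Cxcl10: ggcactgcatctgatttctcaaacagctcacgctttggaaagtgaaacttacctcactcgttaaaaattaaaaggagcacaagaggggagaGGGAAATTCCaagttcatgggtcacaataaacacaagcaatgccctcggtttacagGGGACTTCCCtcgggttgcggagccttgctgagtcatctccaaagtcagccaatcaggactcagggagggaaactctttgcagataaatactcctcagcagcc
Ccl3: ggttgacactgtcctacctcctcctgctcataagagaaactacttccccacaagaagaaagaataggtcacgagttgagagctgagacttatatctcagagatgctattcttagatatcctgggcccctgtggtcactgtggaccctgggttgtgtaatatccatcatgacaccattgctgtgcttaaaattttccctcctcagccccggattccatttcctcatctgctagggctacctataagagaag
In Nfkbia the match lay 29 to 20 bases before the start. Tnfaip3 held a match at 125 to 116 and another at 12 to 3 bases before it, beside an AP-1 element at 136 to 130. Cxcl10 held matches at 159 to 150 and 103 to 94 bases before the start, an interferon element core at 213 to 204 and an AP-1 element at 74 to 68. It was the only one of the 7 genes with the NF-kB, AP-1 and interferon letters together. Tnf, Il1a and Il1b each held a TATA box 32 to 24 bases before the start, and Il1a an AP-1 element at 12 to 6. A match is a run of letters, not a bound site.

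The RNA libraries held 6865903 to 10287876 counts, with 13557 to 14728 genes detected, and replicates correlated across genes at r = 0.978 to 0.990. All 12 microglia markers were detected in every library, at a summed level of 8040 to 10600 CPM (counts relative to the library's effective total). Markers of border macrophages, the macrophages of the meninges and vessels, moved with age: the 10 genes summed to 83.4 and 103 CPM in the adult libraries, 683 to 904 at PND8 and 121 to 183 in repopulation. At PND8 most of that was Mrc1, at 520 to 834 CPM against 49.7 and 52.7 in adult and 25.6 to 41.3 in repopulation. In repopulation most was Siglec1, at 76.6 to 155 CPM against 15.4 and 18.7 in adult and 27.6 to 43.2 at PND8, and Lyve1 was at 0 in all 4 libraries. Neutrophil markers (12 genes) summed to 1040 and 882 CPM in adult, 401 to 580 at PND8 and 711 to 855 in repopulation libraries, carried by Csf3r, which microglia also express; 7 to 10 of the 12 were at 0 in repopulation. S100a8 and S100a9, which define neutrophils, were at 21.6 and 32.8 CPM in adult replicate 1, 7.09 and 8.8 in adult replicate 2, and at most 0.866 in the others. Monocyte markers (10 genes) summed to 49.7 and 32.3 CPM in adult, 13.4 to 22.1 at PND8 and 42.4 to 70.8 in repopulation. The largest part in repopulation was Fn1, at 18.1 to 52.1 CPM against 8.1 and 9.9 in adult. Plac8 (6.87 to 13 against 1.16 and 0.733) and Vcan (4.32 to 8.12 against 2.54 and 1.96) were also higher there. Ccr2 went the other way (5.33 to 8.85 against 13 and 14.4), and Ly6c2 was at or below 0.416 in all libraries but adult replicate 1 (2.31). The part of these cells in the results below was not tested. In bulk RNA, fewer cells of a type and less RNA per cell cannot be told apart. The adult libraries also differ from the rest in genotype and carry a numeric code in their column names that no other library has, so age or treatment cannot be told apart from these in any comparison with adult. All comparisons with adult share the same 2 adult libraries.

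Per length of transcript, Il1a was the most abundant member. Its mean over the 10 libraries was 83.9 TPM (transcript abundance relative to the library's total), above 91.6% of the genes listed with a value over 0. Nfkbia (67.1), Ccl3 (63.9) and Ccl4 (51.3) followed, then Tnfaip3 (33.7), Nfkbiz (25.8), Ccl2 (21.3), Tnf (15) and Cxcl10 (14.3). Il1b was the lowest at 5.41 TPM. The members thus had measurable RNA in untreated adult microglia, and the values below are CPM for comparisons of 1 gene across libraries.

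**Figure D1:**
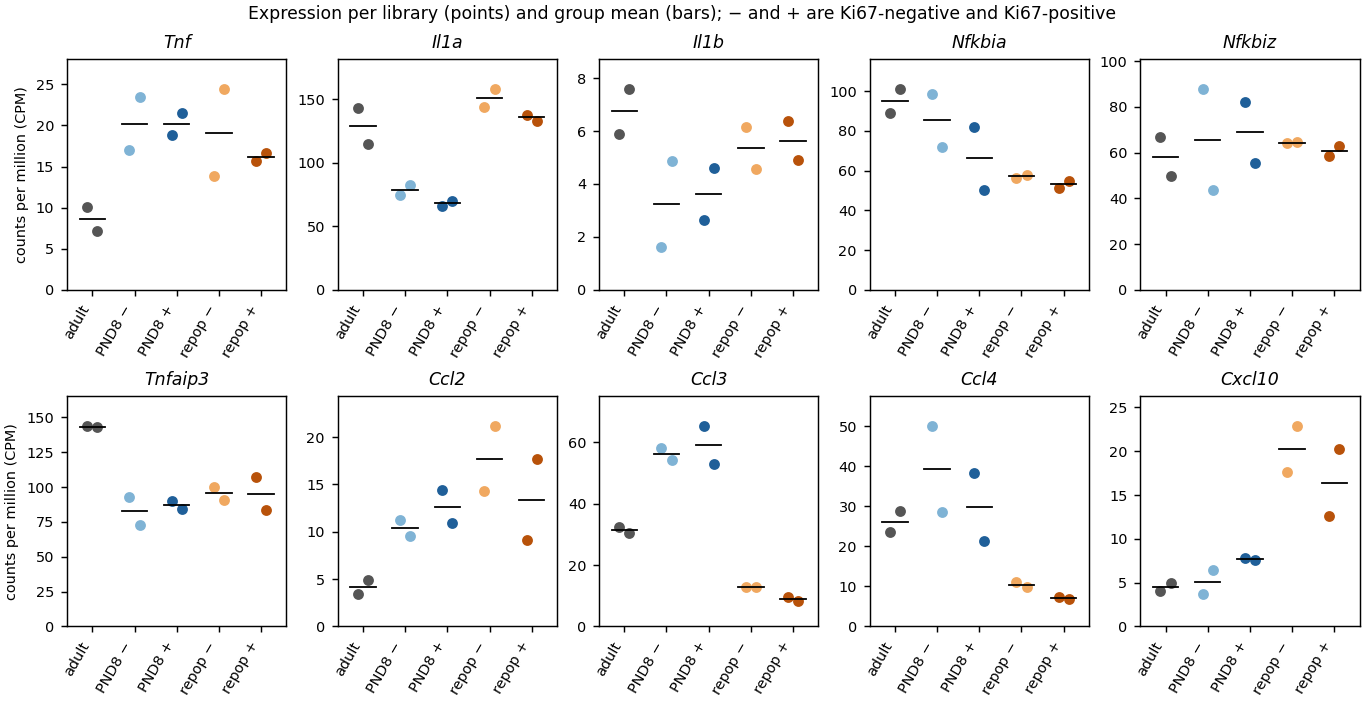
Expression of the 10 genes in CPM (vertical axes, each from 0) in the 10 RNA libraries; points are libraries, bars the mean of each group of 2, and minus and plus stand for Ki67-negative and Ki67-positive. Ccl3 and Ccl4 sit lowest in the 4 repopulation libraries and Cxcl10 highest there, while the 8 libraries of PND8 and repopulation sit above adult for Tnf and Ccl2.

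Against adult, PND8 microglia had more Tnf, Ccl2 and Ccl3 RNA and less Il1a and Tnfaip3 RNA, and repopulating microglia had more Tnf, Ccl2 and Cxcl10 and less Ccl3, Ccl4, Nfkbia and Tnfaip3. Tests were edgeR quasi-likelihood fits over all 10 libraries with p adjusted over the 12230 genes, and a change was called at an adjusted p under 0.05. At PND8, 3 members were called higher and 2 lower in Ki67-negative cells, where 25.4% and 21.4% of all genes tested were, and 3 higher and 3 lower in Ki67-positive cells (25.1% and 24.3%). In repopulation, 3 were higher and 4 lower in Ki67-negative cells (21.5% and 17.6% of all genes), and likewise 3 and 4 in Ki67-positive cells (23.9% and 21%). Between repopulation and PND8, 2 members were higher and 3 lower in Ki67-negative cells (18% and 18.6% of all genes), and 2 were higher and 2 lower in Ki67-positive cells (16.7% and 14.2%). For 10 genes most of these counts lie near the shares over all genes, the widest gap being the 4 members lower in repopulation. Against adult, the members' median log2 change in Ki67-negative and Ki67-positive cells was 0.18 and 0.22 for PND8, then -0.09 and -0.10 for repopulation, beside 0.03, 0.00, -0.01 and -0.01 over all genes. The members therefore did not shift as a block, and what follows is by gene.

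**Figure D2:**
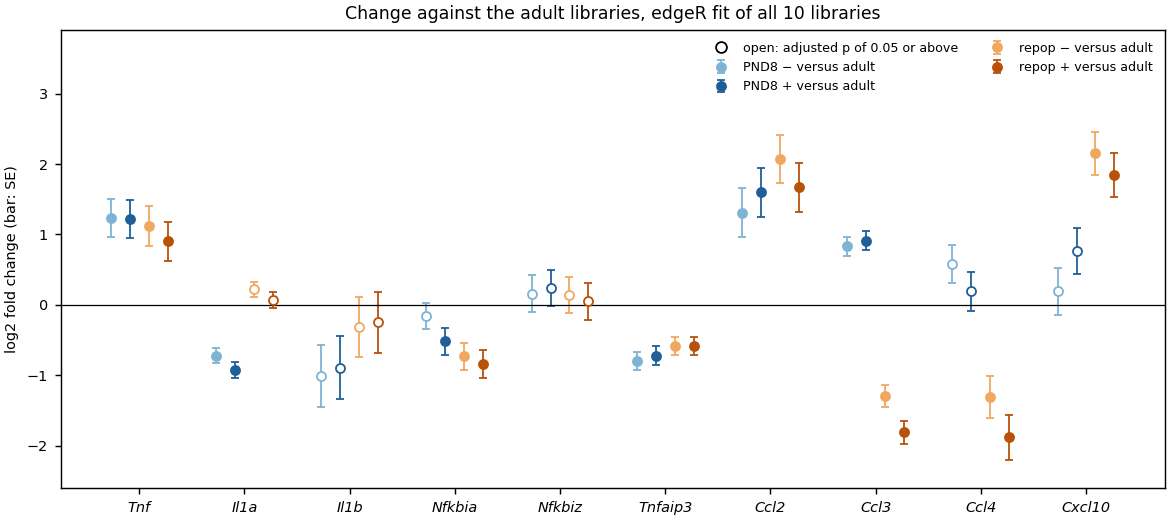
Log2 fold change against the 2 adult libraries (vertical axis) for each gene, with the standard error as a bar; filled points have an edgeR adjusted p under 0.05 and open points do not. Ccl3 lies at 0.83 and 0.91 at PND8 and at -1.29 and -1.81 in repopulation, and Cxcl10 reaches 2.15 and 1.84 in repopulation.

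Tnf encodes the cytokine that both results from NF-kB and sets it off. It was at 10.1 and 7.21 CPM in the adult libraries, 17 and 23.4 in PND8 Ki67-negative, 18.8 and 21.5 in PND8 Ki67-positive, 13.8 and 24.4 in repopulation Ki67-negative and 15.7 and 16.6 in repopulation Ki67-positive libraries. Each of the 8 libraries of young or repopulating cells lay above both adult libraries. Both repopulation Ki67-positive libraries lay below all 4 PND8 libraries, and the remaining groups overlapped. In Ki67-positive cells repopulation differed from PND8 by log2 -0.32 ± 0.258 (edgeR adjusted p = 0.381), with no call. With a term for the numeric code of the libraries it was called, at -0.70 (0.0287). That contrast rests on the code that PND8 replicate 2 and repopulation replicate 1 share, where the log2 CPM difference was -0.45. The rise over adult was 2.34-fold (log2 1.23 ± 0.272 SE, edgeR adjusted p = 0.0024) and 2.33-fold (1.22 ± 0.273, 0.00231) at PND8, in Ki67-negative and Ki67-positive cells. In repopulation it was 2.17-fold (1.12 ± 0.277, 0.00615) and 1.86-fold (0.90 ± 0.279, 0.0187). The repopulation calls were lost in some fits without 1 library of the groups compared, which leave 1 library in a group. Without adult replicate 2 the log2 change was 0.90 (edgeR adjusted p = 0.0688) in Ki67-negative and 0.68 (0.145) in Ki67-positive cells, and without repopulation Ki67-negative replicate 2 the first was 0.68 (0.092). Without repopulation Ki67-positive replicate 1 or 2 the second was not called but kept its size, at 0.92 or 0.86 against 0.90.

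Il1a and Il1b encode the 2 agonists of the IL-1 receptor. Il1a is made as an active protein, while Il1b must be cut by an inflammasome caspase. Il1a was at 143 and 115 CPM in adult, 74.7 and 82.3 in PND8 Ki67-negative, 66 and 70.2 in PND8 Ki67-positive, 144 and 158 in repopulation Ki67-negative and 138 and 133 in repopulation Ki67-positive libraries. All 4 PND8 libraries lay below all others, and the repopulation libraries overlapped or exceeded adult. Il1a was 1.64-fold lower than adult in PND8 Ki67-negative (log2 -0.72 ± 0.11, edgeR adjusted p = 1.7e-04) and 1.9-fold lower in Ki67-positive cells (-0.92 ± 0.112, 1.7e-05). Repopulation exceeded PND8 by 1.92-fold (0.94 ± 0.11, 2.5e-05) and 1.99-fold (0.99 ± 0.112, 1.8e-05), while its change against adult was 0.22 ± 0.108 (adjusted p = 0.12) and 0.07 ± 0.109 (0.635). Within the code that PND8 replicate 2 and repopulation replicate 1 share, the log2 CPM differences were 0.81 and 0.98.

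Il1b had the fewest reads of the members, 13 to 62 counts per library. Its levels were 5.9 and 7.58 CPM in adult, 1.61 and 4.86 in PND8 Ki67-negative, 2.64 and 4.62 in PND8 Ki67-positive, 6.14 and 4.57 in repopulation Ki67-negative and 6.36 and 4.89 in repopulation Ki67-positive libraries. The adult libraries lay above all PND8 libraries and overlapped those of repopulation. None of its comparisons was called in the reported fit. The largest was PND8 Ki67-negative against adult, at -1.01 ± 0.441 (edgeR adjusted p = 0.0779), and it became -2.08 without PND8 Ki67-negative replicate 2. It was called without the low count filter (edgeR adjusted p = 0.0148), with a block for replicate number (0.0462) and by limma on log2(TPM + 1) (0.0483). The change in Ki67-positive cells, -0.89 (edgeR adjusted p = 0.111), was called without that filter (0.0336) and with only the groups compared (0.0451). S100a8 and S100a9 were also highest in the adult libraries, and their bearing on Il1b was not tested. Adult replicate 1 had more of both (21.6 and 32.8 CPM) than adult replicate 2 (7.09 and 8.8), and less Il1b.

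Nfkbia, the IkB protein that NF-kB induces and that carries it out of the nucleus, fell in repopulation. It was at 88.8 and 101 CPM in adult, 98.5 and 72 in PND8 Ki67-negative, 81.9 and 50.5 in PND8 Ki67-positive, 56.5 and 57.8 in repopulation Ki67-negative and 51.5 and 55 in repopulation Ki67-positive libraries. The 4 repopulation libraries lay below both adult libraries and every PND8 library except PND8 Ki67-positive replicate 2, the lowest of all. The fall from adult was 1.66-fold (log2 -0.73 ± 0.191, edgeR adjusted p = 0.00824) and 1.79-fold (-0.84 ± 0.192, 0.00314). Without adult replicate 2 the first was -0.64 (0.071). Against PND8 it was -0.57 ± 0.191 (0.0313) in Ki67-negative cells and -0.32 (0.24) in Ki67-positive cells. The former call was lost without PND8 Ki67-negative replicate 1 (-0.33) and without repopulation Ki67-negative replicate 1 (-0.55) or 2 (-0.58). Within the code that PND8 replicate 2 and repopulation replicate 1 share, the log2 CPM differences were -0.35 and 0.03. The call for PND8 Ki67-positive cells against adult, -0.52 ± 0.188 (0.0348), rested on PND8 Ki67-positive replicate 2: it was -0.21 (0.366) without that library and -0.91 (0.00193) without replicate 1. It was -0.61 (0.0613) and -0.42 (0.186) without adult replicate 1 and replicate 2.

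Tnfaip3 encodes A20, which removes activating ubiquitin chains from the adaptors upstream of NF-kB. Both adult libraries (144 and 143 CPM) lay above the 8 others, which ran from 72.6 to 107. They were 92.9 and 72.6 CPM in PND8 Ki67-negative, 89.9 and 84.4 in PND8 Ki67-positive, 100 and 91.1 in repopulation Ki67-negative and 107 and 83.8 in repopulation Ki67-positive libraries. The fall was called in all 4 comparisons, by 1.74-fold (log2 -0.80 ± 0.129, edgeR adjusted p = 2.5e-04) and 1.64-fold (-0.72 ± 0.129, 4.8e-04) at PND8 and by 1.5-fold in both repopulation groups (-0.58 ± 0.129, 0.00314, and -0.59 ± 0.129, 0.00239). Repopulation and PND8 differed by 0.21 and 0.13, with no call. In a fit with a term for the header code both were called, at 0.45 (edgeR adjusted p = 0.00522) and 0.35 (0.0227). With that term the contrast rests on the code that PND8 replicate 2 and repopulation replicate 1 share, where the log2 CPM differences were 0.46 and 0.34.

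Nfkbiz encodes a nuclear IkB protein needed for a second wave of NF-kB targets. Its groups overlapped except that both repopulation Ki67-positive libraries lay below both Ki67-negative ones. The levels were 66.9 and 49.6 CPM in adult, 87.7 and 43.6 in PND8 Ki67-negative, 82.3 and 55.6 in PND8 Ki67-positive, 64.1 and 64.6 in repopulation Ki67-negative and 58.3 and 62.8 in repopulation Ki67-positive. The log2 changes against adult were 0.05 to 0.24, with edgeR adjusted p of 0.455 to 0.889. The lower and the higher PND8 library of each Ki67 group carried different codes, replicate 1 being the higher in both.

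Ccl2, the ligand of CCR2 that draws monocytes, rose over adult in every group. It was at 3.47 and 4.89 CPM in adult, 11.3 and 9.54 in PND8 Ki67-negative, 14.4 and 10.9 in PND8 Ki67-positive, 14.3 and 21.2 in repopulation Ki67-negative and 9.14 and 17.7 in repopulation Ki67-positive libraries. No library of the 4 groups overlapped adult. Both repopulation Ki67-negative libraries also lay above both PND8 Ki67-negative ones, and the other neighbouring groups overlapped. The rise was 2.48-fold (log2 1.31 ± 0.352, edgeR adjusted p = 0.00808) and 3.03-fold (1.60 ± 0.348, 0.00189) at PND8, and 4.2-fold (2.07 ± 0.344, 3.9e-04) and 3.18-fold (1.67 ± 0.35, 0.00172) in repopulation. Without adult replicate 1 the first was 1.08 (0.08). Repopulation and PND8 differed by 0.76 (0.0688) in Ki67-negative and 0.07 in Ki67-positive cells, with no call. The former was called in other fits that keep all libraries. These were without the low count filter (edgeR adjusted p = 0.00601), with only the groups compared (0.0449) and with a block for replicate number (0.0397).

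Ccl3 and Ccl4 encode MIP-1 alpha and MIP-1 beta, chemokines whose genes lie side by side on chromosome 11, with starts 13206 bp apart. Ccl3 was at 32.5 and 30.5 CPM in adult, 58 and 54.1 in PND8 Ki67-negative, 65.4 and 52.8 in PND8 Ki67-positive, 12.9 and 12.8 in repopulation Ki67-negative and 9.72 and 8.2 in repopulation Ki67-positive libraries. The 3 contexts did not overlap: PND8 was highest, adult between and repopulation lowest. Ccl3 was 1.78-fold (log2 0.83 ± 0.136, edgeR adjusted p = 2.8e-04) and 1.88-fold (0.91 ± 0.136, 1.1e-04) above adult at PND8. It was 2.45-fold (-1.29 ± 0.154, 2.3e-05) and 3.5-fold (-1.81 ± 0.162, 1.2e-06) below adult in repopulation. Repopulation fell below PND8 by 4.35-fold (-2.12 ± 0.15, 2.0e-07) in Ki67-negative and 6.56-fold (-2.71 ± 0.158, 3.7e-08) in Ki67-positive cells. Within the shared code these differences were -2.05 and -2.41 on the log2 CPM scale, so they were of about the same size there.

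Ccl4 was at 23.5 and 28.8 CPM in adult, 50.1 and 28.7 in PND8 Ki67-negative, 38.3 and 21.4 in PND8 Ki67-positive, 11.1 and 9.75 in repopulation Ki67-negative and 7.29 and 6.91 in repopulation Ki67-positive libraries. All 4 repopulation libraries lay under all 6 others, while PND8 and adult overlapped. The fall from adult was 2.49-fold (log2 -1.31 ± 0.303, edgeR adjusted p = 0.004) and 3.67-fold (-1.88 ± 0.32, 3.6e-04), and from PND8 3.72-fold (-1.90 ± 0.297, 2.9e-04) and 4.2-fold (-2.07 ± 0.317, 2.7e-04). Its PND8 change against adult, 0.58 ± 0.271 (0.0949) and 0.19 ± 0.274 (0.579), was not called. It became 0.92 in Ki67-negative cells without PND8 Ki67-negative replicate 2. With all libraries kept, the Ki67-negative change was called without the low count filter (0.58, edgeR adjusted p = 0.00436) and with a block for replicate number (0.54, 0.0499). Within the shared code repopulation was below PND8 by -1.35 and -1.52. Across the 10 libraries Ccl3 and Ccl4 ran together (Pearson r = 0.95 on log2 CPM, a description over libraries that share groups).

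Cxcl10, the CXCR3 ligand that NF-kB and interferon both induce, was in the reported fit the only member called higher than adult in repopulation and not at PND8. It was at 4.05 and 5.01 CPM in adult, 3.71 and 6.42 in PND8 Ki67-negative, 7.82 and 7.63 in PND8 Ki67-positive, 17.6 and 22.9 in repopulation Ki67-negative and 12.6 and 20.2 in repopulation Ki67-positive libraries. The 4 repopulation libraries lay above the 6 others. The rise over adult was 4.44-fold (log2 2.15 ± 0.308, edgeR adjusted p = 1.2e-04) and 3.59-fold (1.84 ± 0.311, 3.3e-04). At PND8 the changes were 0.19 ± 0.337 (0.669) and 0.77 ± 0.326 (0.0649). The latter was called in other fits that keep all libraries. These were without the low count filter (edgeR adjusted p = 0.0189), with only the groups compared (0.0328) and with a block for replicate number (0.0216). It was also called by limma on log2(TPM + 0.1) (adjusted p = 0.0492). Without PND8 Ki67-negative replicate 1 or 2 or repopulation Ki67-positive replicate 1 it was 0.77 to 0.78. The rise of repopulation over PND8 was 3.89-fold (1.96 ± 0.298, 2.3e-04) in Ki67-negative and 2.1-fold (1.07 ± 0.291, 0.0129) in Ki67-positive cells. The last call was lost without any of 3 libraries, at 0.71 (0.155) without repopulation Ki67-positive replicate 2 and 1.07 (0.0694) and 1.03 (0.0736) without either PND8 Ki67-positive library, and in a fit with a term for the header code (0.63, 0.102). With that term the contrast rests on the code that PND8 replicate 2 and repopulation replicate 1 share, where the log2 CPM difference in Ki67-positive cells was 0.71. Cxcl10 moved in the same direction as the 22 interferon response genes listed, all of which were higher in both repopulation groups than in adult, with median log2 changes of 3.18 and 2.85. Ccl3 and Ccl4 moved opposite to it, with Pearson r of -0.80 and -0.86 against Cxcl10 over the 10 libraries.

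Ki67-positive and Ki67-negative cells of the same context were compared to ask whether cycling cells express these genes differently. No member was called with the groups alone in the model. With the header code as a term, which the Ki67 groups of a context share by replicate, Nfkbia was called lower in Ki67-positive PND8 cells (-0.38, edgeR adjusted p = 0.0124, against -0.36 and 0.317 without the term). At PND8, 0 members were higher and 0 lower, where 2.75% and 3.15% of all genes were, and in repopulation 0 and 0, where 1.87% and 0.867% were. At PND8 the log2 differences ran from -0.39 for Ccl4 to 0.58 for Cxcl10 (edgeR adjusted p = 0.334 for the latter), and in repopulation from -0.56 for Ccl4 to 0.06 for Il1b. Ccl3 was lower in both repopulation Ki67-positive libraries than in both Ki67-negative ones, by 0.51 (-0.51 ± 0.176, unadjusted p = 0.012, edgeR adjusted p = 0.162). Inside each code the difference was -0.40 and -0.63 for Ccl3, and -0.60 and -0.48 for Ccl4. The difference between the 2 contexts in the Ki67 effect was tested as an interaction: 0 members and 0 of the 12230 genes were called in either direction (0% and 0%), with 613 genes at an unadjusted p under 0.05 and 3 genes called by DESeq2. Among members the largest were Cxcl10 at -0.89 (unadjusted p = 0.0529), Ccl2 at -0.69 (0.135) and Ccl3 at -0.59 (0.0183), each with an edgeR adjusted p of 0.96. A p above the threshold does not show that cycling and resting cells are alike.

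H3K27ac regions lay at the start of most members in every context. A region lay within 1 kb of the start in both libraries for 8 of 10 members in adult (40.8% of all 20999 genes), 8 in PND8 Ki67-negative (48.1%), 9 in PND8 Ki67-positive (49.2%), 9 in cuprizone Ki67-negative (43.8%), 8 in cuprizone Ki67-positive (45.8%) and 9 in repopulation Ki67-positive (47.2%). The 8 genes other than Il1b and Cxcl10 had one in all 12 libraries, and within 10 kb all 10 had one in all groups. The regions are the authors' calls per library and their lists cover 30 to 52.2 Mb, so coverage is given library by library and no score is compared between lists.

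**Figure D3:**
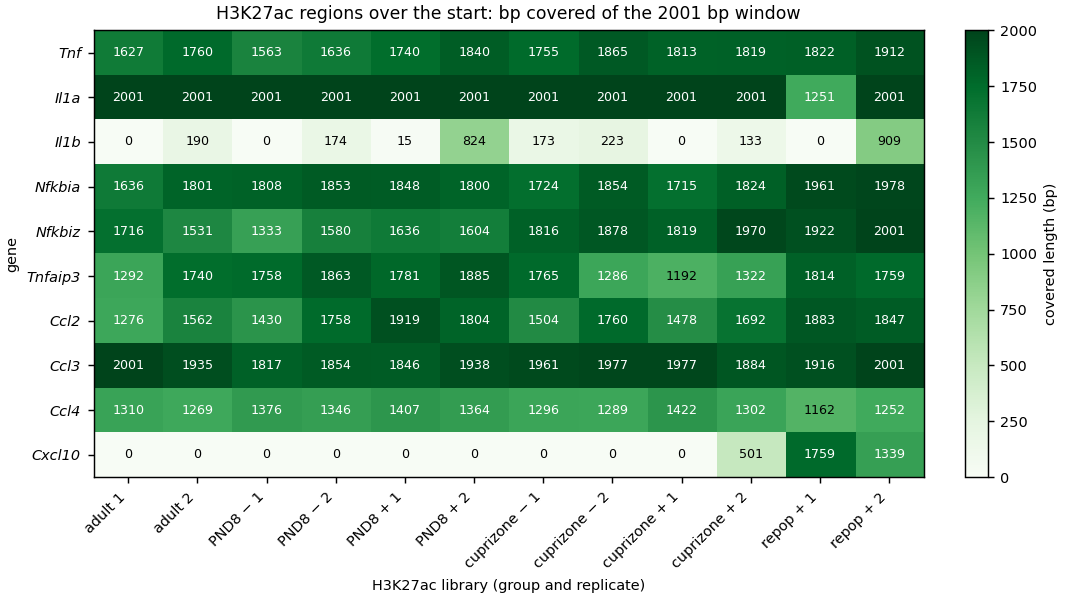
Base pairs covered by H3K27ac regions in the 2001 bp around each start (rows, genes; columns, the 12 libraries by group and replicate; minus and plus, Ki67-negative and Ki67-positive), with the value printed in each cell. Cxcl10 is at 0 in 9 libraries, 501 bp in cuprizone Ki67-positive replicate 2, and 1759 and 1339 bp in repopulation.

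At Cxcl10 the start was covered in repopulation and in 1 cuprizone library. Adult, PND8, cuprizone Ki67-negative and cuprizone Ki67-positive replicate 1 libraries had no region within 1 kb, and their nearest region was 3760 to 4003 bp away. Cuprizone Ki67-positive replicate 2 had a 501 bp region, chr5:92348357-92348857 (mm10), which ended 32 bp inside the gene. The repopulation libraries had chr5:92348131-92349981 and chr5:92348324-92349662, and both span the printed promoter with its NF-kB and interferon letters. In their own lists these scored above 76.7% and 50.4% of the regions. A region at the start in both repopulation libraries and in no adult or PND8 library was found for 1 member and 56 of 20999 genes (0.267%). This pattern was chosen after the values were seen. An ATAC peak lay at the Cxcl10 start in all 3 libraries, and adult H3K4me3 regions of 501 and 682 bp covered it. Rpb2 had no region within 1 kb in either adult library and 1 at PND8.

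Within 10 kb each side, a shorter length of the Ccl3 and Ccl4 windows was covered in repopulation than elsewhere, while the tags per kb in the covered part were above those of PND8. At Ccl3 the covered length was 5339 and 4553 bp in repopulation, against 5829 and 7728 in adult, 6156 and 5661 in PND8 Ki67-negative, 5673 and 7663 in PND8 Ki67-positive, 7797 and 8020 in cuprizone Ki67-negative and 8389 and 9076 in cuprizone Ki67-positive libraries. At Ccl4 it was 3480 and 2319 bp in repopulation and 3698 to 5820 in the 10 others. The normalised tags per kb in the covered part went the other way against PND8: 93.2 and 125 at Ccl3 in repopulation against 77.4 to 90.4 in the 4 PND8 libraries, and 107 and 188 against 54.5 to 66.7 at Ccl4. In adult they were 138 and 146 at Ccl3 and 89.2 and 105 at Ccl4, and in cuprizone 171 to 182 and 163 to 179. These tags are scaled to each library's total only. The share of tags inside regions ran from 32.6% (adult replicate 1) to 69.7% (cuprizone Ki67-negative replicate 2), with 45.5% to 55% at PND8 and 49.9% and 60.3% in repopulation. Tags per kb are therefore a description, and their differences between libraries were not tested. Against PND8, the covered length thus cannot be read as less H3K27ac at these genes. Against adult and cuprizone, both the covered length and the tags per kb at Ccl3 were lower in repopulation. At Ccl4 the repopulation tags per kb lay above both adult libraries and on either side of the cuprizone ones. The 2 windows overlap, so these are not separate observations. Coverage below each of the 10 other libraries in both repopulation libraries was seen for 2 members and for 69 of 9427 windows (0.732%), a pattern also chosen after the values were seen. Coverage above each of the others was seen for 1 member, Cxcl10, and 1149 windows (12.2%). Among libraries with the same code the order held: repopulation replicate 1 (5339 bp at Ccl3) lay below adult replicate 2, PND8 Ki67-negative replicate 2 and PND8 Ki67-positive replicate 2 (7728, 5661 and 7663), and repopulation replicate 2 (4553) below both cuprizone replicates 2 (8020 and 9076). At the Ccl3 start itself repopulation was as covered as elsewhere, at 1916 and 2001 bp against 1817 to 2001. The 4 cuprizone libraries were the most covered at Ccl3, and their start regions scored above 81.7 to 91.3% of their own lists.

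**Figure D4:**
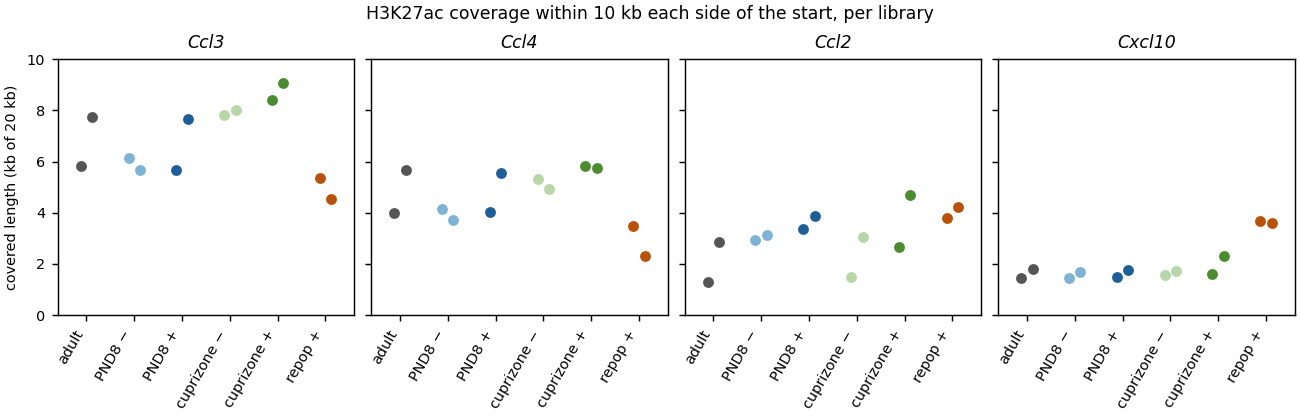
Length covered by H3K27ac regions within 10 kb each side of the start (vertical axis, kb of 20 kb) in each library, for Ccl3, Ccl4, Ccl2 and Cxcl10; points are libraries and minus and plus stand for Ki67-negative and Ki67-positive. The repopulation points, 5339 and 4553 bp at Ccl3, are the lowest there and at Ccl4, and at Cxcl10 (3663 and 3600 bp) they are the highest.

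Ccl2 had a region over its start in all 12 libraries, of 1276 to 2227 bp. Its score exceeded 90.8% and 77.3% of the list in the repopulation libraries, and 23.3% to 64.5% in the 10 others, which are ranks within lists of different length and show no change. The nearest adult H3K4me3 regions were 28261 and 711088 bp from it, while the adult ATAC peak there outscored 92.6% of its list. Il1a, the most abundant member, had the full 2001 bp window covered in all libraries but repopulation replicate 1 (1251 bp), and its start region outscored 85.9% to 99.8% of each list. Within 10 kb, 9018 bp were covered in repopulation replicate 2, against 4562 to 5933 in the 11 others. Il1b, the least abundant, had its nearest region 778 to 1293 bp from the start in 10 libraries, one over the start in PND8 Ki67-positive replicate 2 and one 92 bp away in repopulation replicate 2. Its nearest ATAC peak was 2355 to 2361 bp away in all 3 libraries, and no adult H3K4me3 region lay within 1 kb. Nfkbia, Nfkbiz, Tnfaip3 and Tnf had 1192 to 2001 bp covered at the start in every library. The Tnf window of 10 kb also holds Lta and Ltb, so its wider coverage cannot be given to Tnf alone.

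RNA polymerase II was at the start of 7 members in both adult Rpb2 libraries (28.1% of all genes) and of all 10 in the PND8 Ki67-positive library (48.4%). The adult exceptions were Il1b and Cxcl10 in both libraries and Ccl4 in replicate 2. Rpb2 peaks at Nfkbia, Tnfaip3 and Tnf outscored 94.3% to 99.9% of each list, Tnf reaching 99.9% at PND8. The PND8 list holds 31602 regions and the adult lists 14550 and 10544, so presence there is not a rise. H3K4me3 marked 7 members in both adult libraries (59.1% of genes), all but Il1b, Ccl2 and Ccl4, the last with a region in 1 library. ATAC peaks lay within 1 kb of 9 members in adult (56%), PND8 (58.4%) and repopulation (60.8%), in each case all but Il1b.

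The rest of the pathway was read from gene lists, with counts against adult given for PND8 Ki67-negative and Ki67-positive, then repopulation Ki67-negative and Ki67-positive. Over all genes tested, 25.4%, 25.1%, 21.5% and 23.9% were higher and 21.4%, 24.3%, 17.6% and 21% lower in these comparisons, and the counts below stand beside those shares. Of 10 NF-kB subunits and IkB genes, 2, 0, 2 and 1 were higher and 3, 5, 3 and 3 lower, with list medians of -0.18, -0.21, 0.04 and -0.10. Nfkbie, another inducible IkB gene, fell in all 4 (log2 -0.89, -0.98, -0.43 and -0.57, edgeR adjusted p = 2.3e-04, 9.3e-05, 0.0289 and 0.00527). Relb, the subunit of the alternative pathway, fell in all but PND8 Ki67-negative cells (-0.24, -0.71, -0.41 and -0.85, adjusted p = 0.221, 0.00205, 0.0493 and 7.0e-04). Rela, the main activating subunit, fell in all 4 (-0.21, -0.40, -0.47 and -0.54, adjusted p = 0.0359, 8.5e-04, 4.1e-04 and 9.0e-05). Rel was lower than adult at PND8 (-0.63 and -0.58, 8.2e-04 and 0.00129) and higher in repopulation than at PND8 (0.88 and 0.75, 8.3e-05 and 3.7e-04).

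Of 25 kinases and adaptors that activate NF-kB, 2, 1, 2 and 2 were higher and 10, 9, 4 and 9 lower. Irak2 and Myd88, adaptors of the IL-1 and Toll-like receptors, fell in repopulation (-0.50 and -0.75 for Irak2, -0.45 and -0.57 for Myd88, edgeR adjusted p from 1.7e-05 to 0.00247). Ticam1, the adaptor of TLR3, fell at PND8 (-0.79 and -1.13, adjusted p = 1.5e-04 and 6.1e-06). Ikbke, a kinase that also serves interferon induction, rose in repopulation Ki67-negative cells (2.09 ± 0.319, 2.0e-04; 0.54 and 0.222 in Ki67-positive) and was lower in Ki67-positive than Ki67-negative repopulating cells (-1.56 ± 0.308, 0.0136), at 5.25 against 15.5 CPM.

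Of 19 receptors upstream of NF-kB, 1, 2, 6 and 5 were higher and 9, 10, 7 and 8 lower, and between repopulation and PND8, in Ki67-negative and Ki67-positive cells, 10 and 8 were higher and 2 and 3 lower, where 18% and 16.7% of all genes were higher and 18.6% and 14.2% lower. Tlr1 and Ltbr were among the lower ones in both (-0.30 and -0.38, and -0.44 and -0.37). Tlr3, a receptor of double-stranded RNA, fell at PND8 (-1.52 and -1.84, edgeR adjusted p = 4.9e-08 and 6.4e-09), with a mean of 222 CPM in adult, 77.8 and 61.8 in the PND8 groups and 309 and 257 in those of repopulation. Cd14, the co-receptor of TLR4, had means of 257 CPM in adult, 140 and 117 in the PND8 groups and 189 and 181 in those of repopulation. Il18rap, a chain of the IL-18 receptor, rose in all 4 groups (3.12, 2.69, 2.78 and 2.52, adjusted p from 3.2e-06 to 2.8e-05).

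Of 19 further feedback inhibitors tested out of 21 listed, 4, 5, 1 and 1 were higher and 3, 6, 3 and 6 lower. The phosphatase genes Dusp1 and Dusp2, which switch off MAP kinases, fell in repopulation (Dusp1 by -1.77 and -1.64, edgeR adjusted p = 4.5e-04 and 5.6e-04; Dusp2 by -1.5 and -2.12, 0.0151 and 0.00271). Ier3, an early response gene, had means of 8.65 CPM in adult, 56.2 and 39.6 in the PND8 groups and 5.06 and 4.62 in those of repopulation. Sigirr, an inhibitory member of the IL-1 receptor family, rose in all 4 groups (4.07, 3.39, 3.66 and 3.22, edgeR adjusted p from 5.2e-07 to 7.8e-06). Its adult mean was near 0, at 0.836 CPM, so the size of the rise is uncertain. The means were 14.1 and 8.86 CPM in the PND8 groups and 10.7 and 7.88 in those of repopulation. Of 26 other NF-kB targets tested of 32, 3, 4, 9 and 5 were higher and 7, 9, 5 and 10 lower. Slc2a6, a sugar transporter gene, rose in repopulation by 4.67 and 4.57 (6.3e-09 and 3.4e-09), and Tnfaip2 fell (-1.20 and -1.88, 6.5e-04 and 1.9e-05). Vcam1, an adhesion molecule, fell at PND8 (-2.75 and -2.32, 1.4e-05 and 3.5e-05), and so did Il6 (-2.55 and -1.65, 3.1e-05 and 4.6e-04), from 8.01 to 1.34 and 2.53 CPM.

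Of 14 other chemokines tested of 24, 6, 5, 3 and 3 were higher and 2, 3, 1 and 1 lower. Ccl12, which encodes another CCR2 ligand, rose in repopulation (1.86 and 1.45, edgeR adjusted p = 2.3e-06 and 2.0e-05), as Ccl2 did. Cxcl16 fell at PND8 (-1.28 and -0.90, 3.7e-05 and 4.6e-04) and rose in repopulation (1.03 and 1.16, adjusted p = 1.5e-04 and 4.0e-05), a reverse of the order of Ccl3. Of 12 cytokine and chemokine receptors tested of 15, 3, 4, 1 and 1 were higher and 4, 3, 3 and 5 lower. Ccr1, a receptor for Ccl3, rose in all 4 groups (2.16, 2.42, 2.00 and 2.11, adjusted p from 2.0e-08 to 2.1e-07). Ccr2, the receptor for Ccl2 and a monocyte marker, fell at PND8 (-2.31 and -2.63, 7.3e-05 and 2.7e-05), at 13.7 CPM in adult and 2.84 and 2.2 at PND8. Of 23 immediate early and heat shock genes, which respond to cell handling, 5, 6, 3 and 5 were higher and 5, 7, 11 and 11 lower. Fos was at 50.8 and 64.2 CPM in adult, 297 and 78.9 in PND8 Ki67-negative, 170 and 14.2 in PND8 Ki67-positive, 5.1 and 2.29 in repopulation Ki67-negative and 8.44 and 4.03 in repopulation Ki67-positive libraries. Like Ccl3 it was lowest in the repopulation libraries, but 1 of the 4 PND8 libraries lay below adult, which was not so for Ccl3. The part of handling in the Ccl3 result was not tested.

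The genes whose log2 CPM followed each member most closely over the 10 libraries, by Pearson r, were Ptpro (0.994) and 6030468B19Rik (0.985) for Il1a, Maf (0.989) and Slc11a2 (0.988) for Ccl3, and Mtfr1l (0.985) and Bank1 (0.983) for Ccl4. For Tnfaip3 they were Foxj2 and Stat5b (both 0.977), for Cxcl10 P2ry14 (0.976) and Slc2a6 (0.974), for Tnf Crtap (0.969) and Fam171a2 (0.948), and for Nfkbia Zfp36 (0.966) and Fam129c (0.965). Zfp36, which encodes a protein that destabilises cytokine mRNAs, is itself in the group of feedback inhibitors. Ccl2 was followed by Ccp110 (0.953) and Slc3a2 (0.944), and Il1b by Sertad3 (0.942) and Plcxd1 (0.932). Nfkbiz had the weakest neighbours, Lmln (0.864) and Fam135a (0.851). The 10 points fall into 5 groups, so these values mostly restate the group means.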

How the data were processed

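The deposited table of raw counts holds reads over exons, counted by the authors with HOMER, 1 transcript per gene and at most 3 tags per position, per the file headers, which can hold down short, abundant transcripts. The deposited TPM table was made by the authors with HOMER from the same libraries, per the file headers. Region lists were called by the authors per library with HOMER, and carry a tag signal normalised to 10000000 tags and a score, per the file headers. STAR 2.7.0f, Bowtie2 2.3.4.1, HOMER 4.11 and DESeq2 are named, with mm10, in the submitters' processing notes, which give no build for ATAC. RNA libraries held 6865903 to 10287876 counts, and 12230 of 20999 genes passed edgeR's expression filter. edgeR 4.0.16 (R 4.3.3) with TMM scaling gave quasi-likelihood tests over the 5 groups (common biological coefficient of variation 0.0957), with Benjamini-Hochberg adjustment over all genes tested. limma 3.58.1 on log2(TPM + 1) and DESeq2 1.42.0 were alternatives, besides other filters, scalings, a replicate block, a term for the header code and each library left out. On simulated counts for 12006 genes, repopulation Ki67-positive against adult, 73 of 100 genes changed by 1 on the log2 scale and 85 of 100 changed by 2 were called, all in the right direction. No other genes were changed there, and those changed were drawn at random. In the data 23.9% of genes were called higher and 21% lower in this comparison, so the simulated recovery need not hold for the members. Regions were counted by any overlap with 1 kb or 10 kb each side of the count table's start, with no test between marks or groups. The members and the gene lists were chosen with earlier results of these data known. From each list, at most the 2 genes with the largest rise and the 2 with the largest fall in a comparison were named, among those past the threshold with a mean of at least 1 CPM, and a choice of these is described. With 2 libraries a group, the p-values rest on a spread estimated over all 10 libraries in 1 fit, not on that of the groups compared alone.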

Additional observations from a re-analysis of the deposited data

Results flagged for a closer look

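Ccl3 moved in opposite directions in the contexts compared with adult: every PND8 library lay above both adult libraries and every repopulation library below both. The difference between the contexts, tested directly in the edgeR fit, was -2.12 on the log2 scale in Ki67-negative cells (adjusted p = 2.0e-07) and -2.71 in Ki67-positive cells (3.7e-08), lower in repopulation in 2 of 2 libraries of each. Summed border macrophage markers were higher at PND8 than elsewhere, though Siglec1 among them was highest in repopulation, and Fos was lowest in repopulation. Their part in the Ccl3 result was not tested.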

How the results depend on the processing

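Of the 34 called changes of members, 315 values came from settings that keep all libraries: 295 kept direction and call, 20 lost the call and 0 changed sign. Most of the 20 came from asking for a fold of at least 2, which reuses the reported fit and so cannot change a sign. In the fits that each lack a library, those outside the 2 groups compared reach a change only through the shared fit. Every call lost there came from leaving out a library of the groups compared. Leaving out each library in turn gave 340 values, of which 324 kept both, 16 lost the call and 0 changed sign. Of the 56 changes not called, 19 of 545 values were called under another setting and 15 of 560 without a library, while 19 and 51 had the opposite sign with no call. Nfkbiz, repopulation against PND8 in Ki67-negative cells, went from -0.02 with no call to 0.42 with a call (edgeR adjusted p = 0.0207) with the header code as a term. With that term the contrast rests on the code that PND8 replicate 2 and repopulation replicate 1 share, where the log2 CPM difference was 0.55. PND8 Ki67-negative replicate 1, which carries another code, was at 87.7 CPM and replicate 2 at 43.6. The number of members called, PND8 Ki67-positive against Ki67-negative, was 1 with the header code as a term (Nfkbia) and 0 to 1 with a library left out (Nfkbia without PND8 Ki67-positive replicate 1). For PND8 Ki67-negative against adult it was 4 to 8 with a library left out, 8 without PND8 Ki67-negative replicate 2, when Il1b, Nfkbiz and Ccl4 were added. A fold of at least 2 left 2 members in each PND8 comparison with adult, 4 in repopulation Ki67-positive against adult and 3 in repopulation against PND8 in Ki67-negative cells. Among start regions, the higher-scoring part of each list left 5 members for adult H3K27ac and 1 for H3K4me3. Requiring the regions to cover at least 50% of the window left 0 for adult and PND8 Rpb2 and for adult, PND8 and repopulation ATAC, whose regions are narrower than that by construction. Replicate numbers do not pair these samples throughout: deviations of same-numbered libraries correlated at 0.338 between the PND8 groups and 0.263 between the repopulation groups, and at -0.008 to 0.097 otherwise. With a replicate block, 7, 7, 7 and 7 members were called against adult in the order of the report and 6 and 4 between repopulation and PND8. Over all genes the block moved the PND8 Ki67 calls from 721 to 1228 and those in repopulation from 335 to 711. Other settings and left-out libraries gave 220 to 1631 and 105 to 998 for these, the PND8 count being 1113, 452 and 220 without PND8 Ki67-negative replicate 1, Ki67-positive replicate 1 and Ki67-positive replicate 2. The repopulation count was 105 and 122 without Ki67-negative replicate 1 and Ki67-positive replicate 2, and 593 and 627 without PND8 Ki67-negative replicates 1 and 2. A fold of at least 2 left 1913, 2078, 1539 and 1827 genes against adult (of 5720, 6049, 4789 and 5489) and 1408 and 1180 between repopulation and PND8 (of 4473 and 3778). For repopulation Ki67-negative against adult the count was 3158 without either adult library and 3078 without repopulation Ki67-negative replicate 2, and for Ki67-positive 3640 without repopulation Ki67-positive replicate 2. Between repopulation and PND8 it was 2869 without repopulation Ki67-negative replicate 1, and in Ki67-positive cells 2430, 2503 and 2269 without PND8 replicate 1, PND8 replicate 2 and repopulation replicate 1. Scaling by library size only split the calls between repopulation and PND8 as 1829 higher and 3064 lower (2203 and 2270 as reported) in Ki67-negative and 1730 and 2222 (2040 and 1738) in Ki67-positive cells, with no shift of the median over 0.1. The header code could not be fitted against adult.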

Other observations

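Several genes of the lists were near 0 in some groups, so only their levels are given. Cxcr2, a receptor of neutrophil-attracting chemokines and itself on the neutrophil marker list, was at 25.2 and 12.9 CPM in PND8 Ki67-negative and Ki67-positive cells and at 0.173 in adult and 0.0762 and 0.116 in repopulation. Other genes of that list went the other way. S100a8 and S100a9 were at most 0.866 CPM in the PND8 libraries and 7.09 to 32.8 in adult, and Ngp, Ltf, Camp and Lcn2 were likewise higher in adult. Cx3cl1, the ligand of the microglial fractalkine receptor, was at 3.65 and 2.33 CPM at PND8, 0.305 in adult and 0 and 0.245 in repopulation. Il1r2, a decoy receptor for IL-1, was at 4.7 and 2.68 CPM in repopulation and at 0.122 to 0.555 elsewhere. Cxcr3, the receptor for Cxcl10, had means of 2.25 CPM in adult, 6.33 and 5.04 in the PND8 groups and 0.281 and 0 in those of repopulation, the groups in which Cxcl10 was highest.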
